A study of Mus musculus with 15 samples.

Results

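Enteric neural crest-derived cells (ENCDC) of the E13.5 mouse colon were compared between embryos with RarαDN, a retinoic acid receptor α that acts as a dominant negative, and embryos without it. The members are the 7 libraries, of 15 in the series, that the labels place in E13.5 colon, with 3 RarαDN embryos and 4 control embryos and with 1 embryo per library. RarαDN embryos had the genotype RarαDN LoxP/+; RETCreERT2-EYFPTandem, and control embryos had RETCreERT2-EYFPTandem alone, both on a mixed background. Dams of both groups received tamoxifen at E10.5. CreERT2 is a tamoxifen-activated recombinase driven here from the Ret locus. Both groups thus carried the same altered Ret allele and EYFP reporter and received the same drug, and by the genotypes given they differed in the RarαDN allele. Sex was not matched between the groups, with Y-linked transcripts in RarαDN libraries 1 and 2 and in control library 2. RarαDN was induced only in cells that expressed Ret while Cre was active, and in their descendants, and the share of EYFP+ cells with a recombined allele was not given in the sources used here. Cells were dispersed from single colons and sorted by EYFP, cDNA was amplified with the SMART method, and counts per transcript came from single-end reads. The other 8 libraries, E11.5 stomach ENCDC with RarαDN LoxP/+; Wnt1Cre; ROSA26TdTomato or Wnt1Cre; ROSA26TdTomato, enter only where the effect of RarαDN is set beside that at the other age.

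Retinoic acid is made from vitamin A and acts through RAR and RXR, nuclear receptors that bind retinoic acid response elements and exchange corepressors for coactivators when the ligand is bound. A dominant-negative receptor occupies such elements without activating transcription. In the bowel, retinoic acid is known to be needed by neural crest cells as they colonize the gut, while RET and the endothelin receptor EDNRB receive the signals that keep the same cells dividing and migrating.

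The libraries held 6065029 to 10105584 counts in RarαDN ENCDC and 7190882 to 9996628 in control ENCDC, over 17090 genes. All 8 markers of enteric neural crest were detected, and their summed level was 2702 to 3031 CPM (each count as a share of its library total, scaled by the TMM method, on a base of 1000000 counts) in RarαDN ENCDC and 1845 to 2530.2 CPM in control ENCDC. Hemoglobin transcripts summed to 0.450 to 74.5 CPM in RarαDN ENCDC and to 19.6 to 3686 CPM in control ENCDC, with the highest values, 754 and 3686 CPM, in control libraries 2 and 3; Hba-a1 and Hba-a2 share identical counts, as do Hbb-b1 and Hbb-b2, and the sums hold both of each pair. Summed mesenchyme and smooth muscle markers ranged from 68.4 to 145 CPM in RarαDN ENCDC and from 146 to 333 CPM in control ENCDC, and endothelial markers from 51.5 to 60.004 CPM and from 92.4 to 161 CPM in the same order of groups. Leukocyte and macrophage markers summed to 38.9 to 61.6 CPM in RarαDN ENCDC and 56.6 to 89.9 CPM in control ENCDC, and epithelial markers to 5.09 to 11.7 CPM in RarαDN ENCDC and 3.901 to 17.004 CPM in control ENCDC. By the test described next, the mesenchyme markers Col1a2 and Des (of 8 tested), the endothelial marker Egfl7 (of 5) and the leukocyte marker Coro1a (of 2) were called lower in RarαDN ENCDC and none of the 3 epithelial markers tested was called, while the leukocyte marker Ptprc, the epithelial marker Cdh1, the endothelial marker Tie1, the mesenchyme marker Lum and the erythroid markers Slc4a1 and Tal1 were at 0 in all 7 libraries. Egfl7 had means of 33.5 CPM in RarαDN and 84.7 CPM in control ENCDC, within endothelial sums of 54.4 and 114.9 CPM. The endothelial markers did not move together: log2 fold changes ran from -1.4 to 4.21, and DESeq2 called 1 higher and 1 lower. Coro1a had means of 26.3 and 54.8 CPM, within leukocyte sums of 49.8 and 77.8 CPM, and the other leukocyte marker tested was at 0.05. Y-linked transcripts were present in RarαDN libraries 1 and 2 and in control library 2. Pairwise correlations of log2 CPM were 0.93 to 0.96 among the 3 RarαDN libraries and 0.84 to 0.86 among the 4 control libraries. The part that sex or other cells played in any result was not tested, beyond the fits that add a Y-linked term or leave both hemoglobin-rich control libraries out.

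By the quasi-likelihood test of edgeR, with an adjusted p (Benjamini-Hochberg over all genes tested) under 0.05 as the threshold, 1007 of 12085 genes (8.33%) differed between the groups. RNA of 336 genes (2.78%) was higher in RarαDN ENCDC and RNA of 671 genes (5.55%) was lower. The median size of the change was 1.02 on the log2 scale among the higher genes and 1.03 among the lower genes, and 26 and 52 genes passed a log2 change of 2. In 1004 of the 1007 called genes (99.7%) the RarαDN libraries did not overlap with the control libraries, where over all genes tested the RarαDN libraries lay above every control library in 12.7% and below in 13.3%. DESeq2 called 14.3% of the same genes (5.11% higher, 9.14% lower), and an unadjusted p under 0.05 was found for 23.6% (11.3% higher, 12.4% lower). The count rests on few libraries: it was 25 (0.199%) without RarαDN library 1, 44 without RarαDN library 2, 324 without RarαDN library 3 and 462 without control library 3, while without both hemoglobin-rich control libraries it was 212 (1.70%, with 0.562% higher and 1.14% lower). Over all genes the median log2 fold change was 0.06. The shares over all genes by DESeq2 and by unadjusted p are those to set beside the list counts given below by these measures.

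Transcript length moved with the groups. Among 816 genes with transcripts under 1000 bases, 311 (38.1%) were called lower in RarαDN ENCDC and 1 (0.123%) was called higher, whereas among 3665 genes with transcripts of 4000 bases or more, 21 (0.573%) were called lower and 168 (4.58%) higher. The median log2 fold change was -0.88 in the shortest class, -0.32 from 1000 to 2000 bases, 0.15 from 2000 to 4000 bases and 0.44 in the longest class. Each library's deviation from the mean of the 7 libraries also ordered by length across genes, with a Spearman correlation of 0.30 to 0.51 in the RarαDN libraries and -0.35 to -0.03 in the control libraries, and the ranges of the groups did not overlap. With the length trend taken out of each library by an offset, 197 genes were called (1.63%), 55 higher (0.455%) and 142 lower (1.18%), and 178 of these were also called in the same direction without that offset. Group and library-wide length trend cannot be told apart in 7 libraries, and of the called genes named in the text, 52 passed also with the trend removed and 71 did not. The markers Egfl7 and Coro1a are among the 71 (edgeR adjusted p = 0.103 and 0.14), and the others are given below as not passing in that fit. In the fit without both hemoglobin-rich control libraries 44 of the named called genes passed and 79 did not. The libraries left out there, controls 2 and 3, also had the lowest correlations with length, -0.35 and -0.34. Hemoglobin level, length trend and the number of control libraries thus change together in that fit and cannot be told apart. With only the hemoglobin genes left out, 1012 genes were called.

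**Figure D1:**
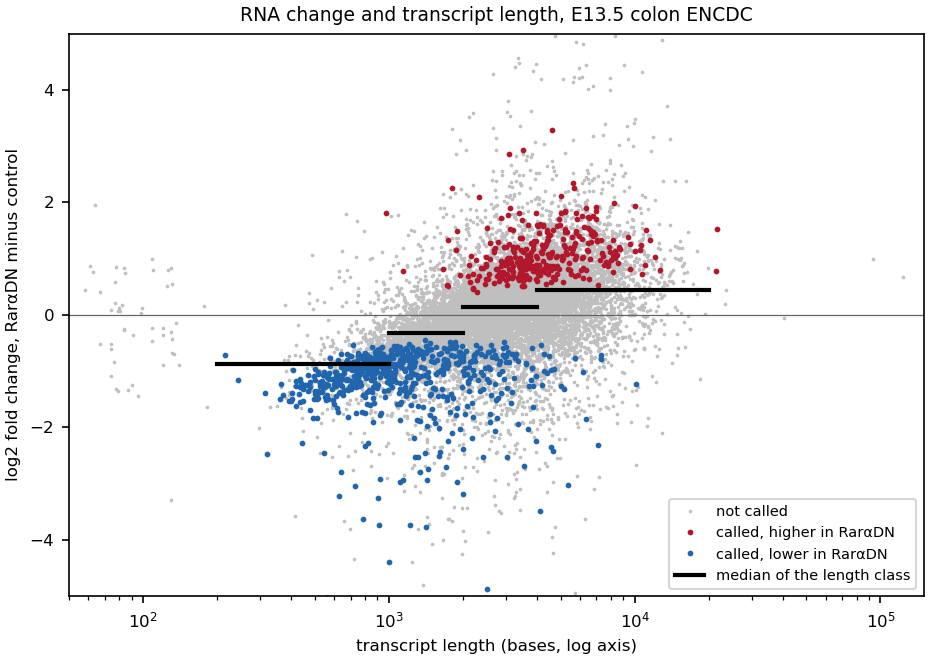
Log2 fold change (RarαDN minus control) of each tested gene with a known transcript length against that length in bases on a log axis, with genes called higher in red, genes called lower in blue, uncalled genes in grey, and bars for the median of each length class. The medians step up from -0.88 under 1000 bases to 0.44 at 4000 bases or more; 48 genes with a log2 fold change beyond 5 in size are not drawn.

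A group of 22 genes (0.182% of those tested) passed with all 7 libraries and in each of the 7 fits that left 1 library out. RNA of 5 (0.0414%) was higher in RarαDN ENCDC and RNA of 17 (0.141%) was lower. All 22 also passed with the length trend removed and all 22 passed without both hemoglobin-rich control libraries. They hold a cyclin-dependent kinase inhibitor, a D-type cyclin, an endothelin receptor, adhesion and actin regulators, an imprinted Notch-family ligand and a helix-loop-helix inhibitor, along with 3 genes that the table names only by clone symbols. Each other called gene named below lost its call in at least 1 of the fits that left a library out, and 11 of the 1007 lost it in all 7.

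The gene with the lowest adjusted p was Cdkn1c, which encodes p57Kip2, an imprinted inhibitor of cyclin-dependent kinases. Cdkn1c had 354, 409 and 314 CPM in RarαDN ENCDC and 2592, 3208, 2881 and 2588 CPM in control ENCDC. All 3 RarαDN libraries lay far below every control library, and the means were 359 ± 47.7 CPM (SD, n = 3) and 2817 ± 294 CPM (n = 4), in the same order (edgeR log2 fold change -2.97 ± 0.15 SE, adjusted p = 1.57e-05). Ccnd2, which encodes cyclin D2, a partner of the G1-phase kinases CDK4 and CDK6, had 100.4, 169 and 116 CPM in RarαDN ENCDC and 419, 488, 448 and 495 CPM in control ENCDC (edgeR log2 fold change -1.85 ± 0.19 SE, adjusted p = 0.00303). Its transcript is long, 6330 bases, and its change was larger with the length trend removed (-2.38). Of 31 tested G1-phase cyclins, CDK inhibitors and Rb-E2f genes, 1 was called higher and 5 lower (3.23% and 16.1%, beside 2.78% and 5.55% of all genes). The others called lower were Ccnd3 (-0.81, edgeR adjusted p = 0.0161), which encodes cyclin D3, the stress-responsive gene Gadd45a (-1.10, edgeR adjusted p = 0.0298) and the antiproliferative gene Btg2 (-1.52, edgeR adjusted p = 0.0408). In the opposite direction Ccnd1, which encodes cyclin D1, had 589.9, 614 and 553 CPM in RarαDN ENCDC and 448, 317, 258 and 289.6 CPM in control ENCDC, without overlap (edgeR log2 fold change 0.84 ± 0.18 SE, adjusted p = 0.0211). Cdkn1c and Ccnd2 stayed called lower once the length trend was removed, and Ccnd3, Gadd45a, Btg2 and Ccnd1 did not pass (edgeR adjusted p = 0.0569, 0.213, 0.0713 and 0.161).

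**Figure D2:**
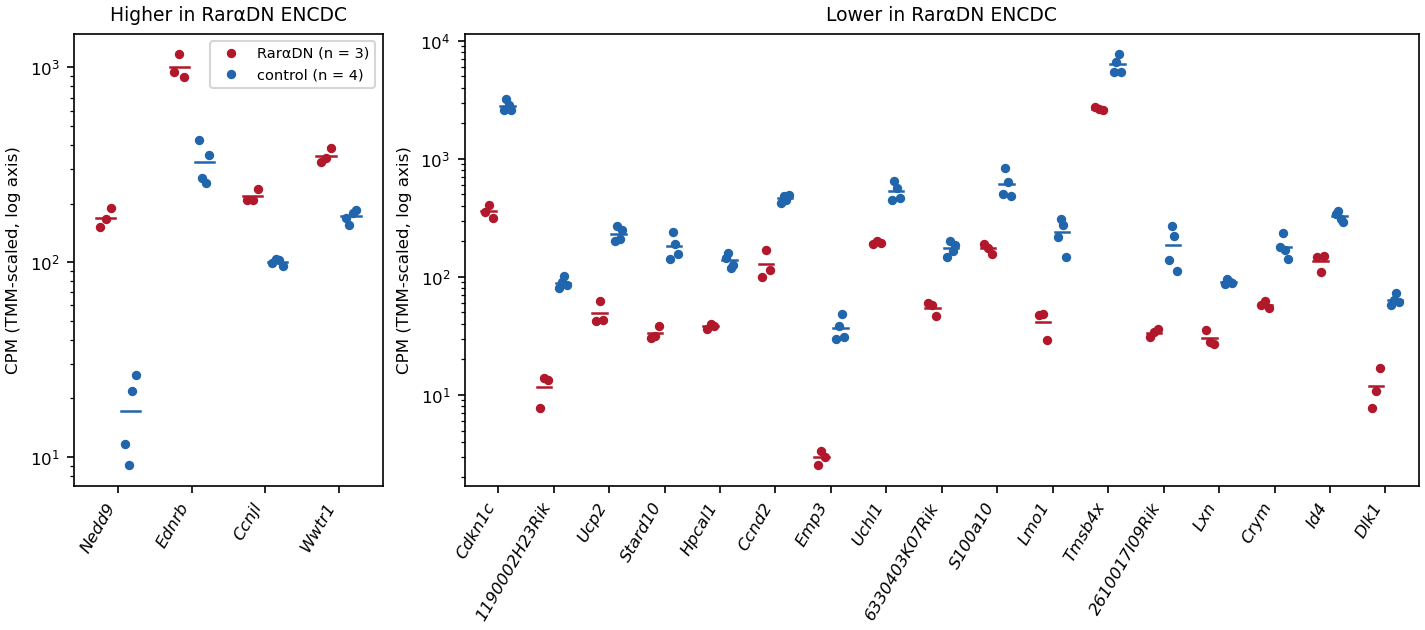
TMM-scaled CPM (log axis) of 21 of the 22 genes that passed in the fit of all 7 libraries and in every fit that left 1 library out, with a point per library and a line at the group mean, RarαDN in red (n = 3) and control in blue (n = 4). The left panel holds 4 genes that were higher and the right panel the 17 that were lower in RarαDN ENCDC, and in none of the 21 do the points of the groups overlap.

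Of the 5 genes that were higher in every fit, Nedd9 had the largest fold. NEDD9 is a scaffold of the Cas family at focal adhesions, with known roles in cell migration and neural crest development. Nedd9 had 152, 166 and 190.1 CPM in RarαDN ENCDC and 11.7, 9.10, 21.96 and 26.3 CPM in control ENCDC, and the lowest RarαDN library exceeded the highest control library several times over (edgeR log2 fold change 3.29 ± 0.34 SE, adjusted p = 0.00303). Ednrb, which encodes the receptor for endothelin 3, had 952, 1167 and 892 CPM in RarαDN ENCDC and 426, 270.0, 255 and 353 CPM in control ENCDC (edgeR log2 fold change 1.62 ± 0.19 SE, adjusted p = 0.00472). Every RarαDN library thus held more Ednrb RNA than any control library. Wwtr1, which encodes TAZ, a transcriptional coactivator of the Hippo pathway, had 327, 343 and 384 CPM in RarαDN ENCDC and 168, 155, 179 and 186 CPM in control ENCDC (edgeR log2 fold change 1.03 ± 0.13 SE, adjusted p = 0.00596). Ccnjl, a cyclin J-like gene, was also among them (edgeR log2 fold change 1.12 ± 0.14 SE, adjusted p = 0.00596). It spread little within groups, with 208 to 238 CPM in RarαDN ENCDC and 95.9 to 104 CPM in control ENCDC.

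The 17 genes that were lower in every fit include genes of actin and membrane proteins. Tmsb4x, which encodes the actin monomer-binding peptide thymosin β4, had 2763, 2664 and 2596 CPM in RarαDN ENCDC and 5480.2, 6679, 7709.6 and 5428 CPM in control ENCDC (edgeR log2 fold change -1.24 ± 0.14 SE, adjusted p = 0.00472). The groups did not overlap, and the log2 fold change was -0.39 with the length trend removed (edgeR adjusted p = 0.039), for a transcript of 768 bases. S100a10, which encodes the partner of annexin A2 in a membrane-bound complex, had 188, 178 and 157 CPM in RarαDN ENCDC and 506, 838, 642 and 484 CPM in control ENCDC (edgeR log2 fold change -1.83 ± 0.20 SE, adjusted p = 0.00396). Emp3, a tetraspan membrane protein gene, had the largest fold of the 17, with 2.55, 3.37 and 3.00 CPM in RarαDN ENCDC and 30.0, 38.2, 48.4 and 31.1 CPM in control ENCDC (edgeR log2 fold change -3.62 ± 0.38 SE, adjusted p = 0.00303). Outside the 17, Anxa2, the gene of that annexin, and Vim, which encodes the intermediate filament vimentin, each passed 6 of the 7 fits that left a library out. Anxa2 had 24.8, 34.1 and 26.5 CPM in RarαDN ENCDC and 173, 313, 176 and 97.4 CPM in control ENCDC, with no overlap (edgeR log2 fold change -2.73 ± 0.36 SE, adjusted p = 0.00644). Vim had 1011, 1061 and 1093 CPM in RarαDN ENCDC and 2183, 2395, 1843 and 1880.3 CPM in control ENCDC (edgeR log2 fold change -0.98 ± 0.13 SE, adjusted p = 0.00609).

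Neural and signaling genes made up a further share of the 17. Lmo1, a LIM-only transcriptional regulator, had 47.6, 48.1 and 29.03 CPM in RarαDN ENCDC and 218, 313, 278 and 148 CPM in control ENCDC (edgeR log2 fold change -2.53 ± 0.29 SE, adjusted p = 0.00472). Uchl1, which encodes the abundant neuronal deubiquitinase PGP9.5, had 192, 202 and 194 CPM in RarαDN ENCDC and 451, 645, 565 and 464 CPM in control ENCDC (edgeR log2 fold change -1.44 ± 0.16 SE, adjusted p = 0.00355). Both genes separated the groups completely, and the 3 RarαDN libraries of Uchl1 lay close to each other. Id4, an inhibitor of basic helix-loop-helix factors and a target of BMP signaling, had 148, 111 and 149.7 CPM in RarαDN ENCDC and 344, 363, 309 and 292 CPM in control ENCDC (edgeR log2 fold change -1.26 ± 0.16 SE, adjusted p = 0.00596). Dlk1, an imprinted gene for a noncanonical Notch ligand, had 7.80, 10.8 and 17.04 CPM in RarαDN ENCDC and 58.1, 63.2, 73.5 and 61.9 CPM in control ENCDC (edgeR log2 fold change -2.42 ± 0.32 SE, adjusted p = 0.00609). Hpcal1, a neuronal calcium sensor gene, had 36.4 to 40.2 CPM in RarαDN ENCDC and 119 to 161 CPM in control ENCDC (edgeR log2 fold change -1.84 ± 0.19 SE, adjusted p = 0.00303).

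The other genes of the 17 have metabolic or binding functions. Ucp2, a carrier of the mitochondrial inner membrane, had 42.2, 62.5 and 43.5 CPM in RarαDN ENCDC and 202, 268, 211 and 251 CPM in control ENCDC (edgeR log2 fold change -2.24 ± 0.20 SE, adjusted p = 0.00191). Stard10, a lipid-transfer gene, had 30.2, 31.4 and 38.2 CPM in RarαDN ENCDC and 142, 241, 189 and 158 CPM in control ENCDC (edgeR log2 fold change -2.45 ± 0.23 SE, adjusted p = 0.00191). Neither gene showed overlap between the groups. Crym, which encodes a thyroid hormone-binding crystallin, fell by 1.64 on the log2 scale and Lxn, a carboxypeptidase inhibitor gene, by 1.58, both with edgeR adjusted p = 0.00596. The genes known only by clone symbols were 1190002H23Rik (-2.93, edgeR adjusted p = 0.00191), 2610017I09Rik (-2.47, edgeR adjusted p = 0.00596) and 6330403K07Rik (-1.67, edgeR adjusted p = 0.00373).

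Among called genes of above-median level without overlap between the groups, those with the largest folds included developmental regulators. Tshz1, a zinc finger homeobox gene, had 66.5, 60.3 and 70.9 CPM in RarαDN ENCDC and 13.2, 5.82, 20.6 and 15.6 CPM in control ENCDC (edgeR log2 fold change 2.25 ± 0.38 SE, adjusted p = 0.00929). Mef2c, a MADS-box transcription factor gene with known roles in neural crest, had 118, 147 and 98.4 CPM in RarαDN ENCDC and 49.2, 9.70, 40.9 and 46.7 CPM in control ENCDC (edgeR log2 fold change 1.72 ± 0.43 SE, adjusted p = 0.0379), and control library 2 was well below the other controls. Sort1, a sorting receptor gene that also acts with neurotrophin receptors, had 29.8 to 80.1 CPM in RarαDN ENCDC and 10.3 to 22.4 CPM in control ENCDC (edgeR log2 fold change 1.77 ± 0.40 SE, adjusted p = 0.0257). Among lower genes of this rank was Tm4sf1, a tetraspan gene of migrating and endothelial cells, with 18.9, 17.8 and 14.4 CPM in RarαDN ENCDC and 77.1, 91.4, 63.0 and 29.5 CPM in control ENCDC (edgeR log2 fold change -1.94 ± 0.38 SE, adjusted p = 0.0145). The summed endothelial markers moved the same way, and their part in it was not tested. Of the called genes with the highest CPM, Ftl1, the ferritin light chain gene, had 1857, 1915 and 1572 CPM in RarαDN ENCDC and 3025, 3404, 3885 and 2811 CPM in control ENCDC (edgeR log2 fold change -0.88 ± 0.14 SE, adjusted p = 0.00878), and Ncl, which encodes the nucleolar protein nucleolin, had 1403, 1698 and 1101 CPM in RarαDN ENCDC and 985, 794, 654 and 866 CPM in control ENCDC (edgeR log2 fold change 0.76 ± 0.18 SE, adjusted p = 0.0267). Mef2c, Sort1, Ftl1 and Ncl did not pass with the length trend removed (edgeR adjusted p = 0.1, 0.157, 0.243 and 0.787).

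Retinoid genes did not move in 1 direction. Of 23 tested genes of retinoid metabolism or known retinoid response, 2 were called higher and 2 lower (8.70% each, beside 2.78% and 5.55% of all genes). The list's median log2 fold change was 0.03, beside 0.06 over all genes tested. Rarb, which encodes the receptor RARβ and is a direct retinoic acid target in many cells, had 342, 328 and 275 CPM in RarαDN ENCDC and 259.7, 173, 178 and 175 CPM in control ENCDC (edgeR log2 fold change 0.68 ± 0.18 SE, adjusted p = 0.0409). The lowest RarαDN library, 275 CPM, lay just above the highest control library, and Rarb passed in 1 of the 7 fits that left a library out and did not pass with the length trend removed (edgeR adjusted p = 0.196). Dhrs3, which encodes a reductase that returns retinaldehyde to retinol, had 55.9, 64.6 and 59.7 CPM in RarαDN ENCDC and 7.09, 6.86, 20.1 and 21.9 CPM in control ENCDC (edgeR log2 fold change 2.10 ± 0.44 SE, adjusted p = 0.0192). Crabp1, which encodes a cytosolic retinoic acid-binding protein, had 16.7, 16.3 and 5.06 CPM in RarαDN ENCDC and 41.0, 85.0, 80.2 and 46.9 CPM in control ENCDC (edgeR log2 fold change -2.32 ± 0.46 SE, adjusted p = 0.0162). These groups did not overlap, and Dhrs3 and Crabp1 each passed 4 of the 7 fits that left a library out and neither passed with the length trend removed (edgeR adjusted p = 0.053 and 0.1). Fabp5, which encodes a fatty acid- and retinoic acid-binding protein, had 214, 202 and 209.6 CPM in RarαDN ENCDC and 322, 436, 475 and 335 CPM in control ENCDC (edgeR log2 fold change -0.91 ± 0.17 SE, adjusted p = 0.0111), with a log2 fold change of -0.24 once the length trend was removed, where it did not pass (edgeR adjusted p = 0.3). Rarb, Dhrs3, Crabp1 and Fabp5 did not pass without both hemoglobin-rich control libraries either (edgeR adjusted p = 0.185, 0.0828, 0.126 and 0.051).

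Rara itself had 50.3, 45.8 and 89.6 CPM in RarαDN ENCDC and 54.6, 65.8, 65.6 and 81.3 CPM in control ENCDC, with overlapping groups (edgeR log2 fold change -0.11 ± 0.27 SE, adjusted p = 0.857). This level does not check the labels, because the sources do not say where reads of the dominant-negative transgene were counted. Of 16 tested RAR corepressor and coactivator genes, 2 were called higher and 1 lower (12.5% and 6.25%, beside 2.78% and 5.55% of all genes). Tbl1x, a subunit of the NCoR and SMRT corepressor complexes, had 81.2, 84.0 and 86.1 CPM in RarαDN ENCDC and 31.8, 28.9, 15.4 and 16.7 CPM in control ENCDC (edgeR log2 fold change 1.85 ± 0.29 SE, adjusted p = 0.00874). Ncor1, the nuclear receptor corepressor itself, had 159, 151 and 124 CPM in RarαDN ENCDC and 78.3, 72.8, 75.7 and 66.1 CPM in control ENCDC (edgeR log2 fold change 0.98 ± 0.17 SE, adjusted p = 0.00942). The groups were apart for both genes, whose transcripts are long, and neither passed with the length trend removed (edgeR adjusted p = 0.0643 and 0.406). Sin3b, a corepressor scaffold gene with a transcript of 1024 bases, was called lower (-0.70, edgeR adjusted p = 0.0377), but at -0.08 it did not pass with the length trend removed (edgeR adjusted p = 0.842).

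The Rarb promoter is shown because it holds the classical response element through which retinoic acid receptors act. The window is chr14:16575427-16575726 on the minus strand of GRCm38.p6 (RefSeq), from 250 bases before to 50 after the start of transcription, with both half-sites of the element and the bases between them in capitals.
Rarb: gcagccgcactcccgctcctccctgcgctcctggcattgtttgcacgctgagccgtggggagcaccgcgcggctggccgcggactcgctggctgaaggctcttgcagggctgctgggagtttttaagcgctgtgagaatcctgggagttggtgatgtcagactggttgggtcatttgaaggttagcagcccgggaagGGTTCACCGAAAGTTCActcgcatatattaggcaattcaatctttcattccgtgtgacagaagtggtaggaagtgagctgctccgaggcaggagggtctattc
The element, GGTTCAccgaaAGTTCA, is a direct repeat of the half-site with 5 bases between the copies (DR5). A search for the DR5 element on both strands found it in 5 of 9597 tested genes with a RefSeq promoter (0.0521%). Rarb was the only 1 of the 270 called higher that had it, and none of the 536 called lower had it. A match in the window is a description of its letters and does not show that a receptor was bound.

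**Figure D3:**
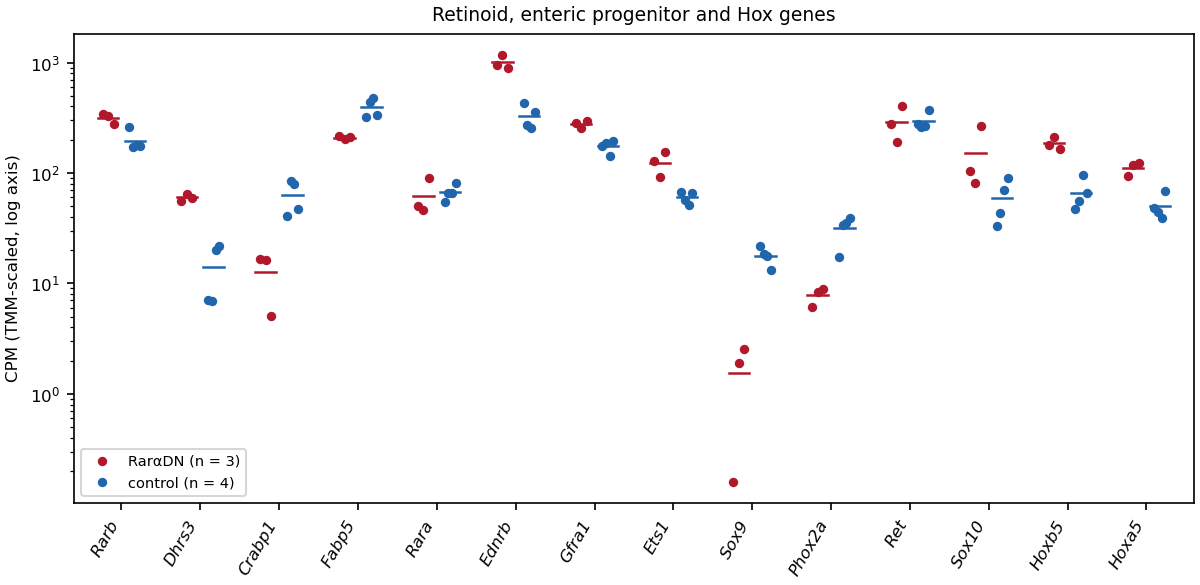
TMM-scaled CPM (log axis) of 14 genes named in the text, with a point per library and a line at the group mean, RarαDN in red (n = 3) and control in blue (n = 4). Points of the groups are apart for Rarb, Dhrs3, Crabp1 and Fabp5 and overlap for Rara, Ret and Sox10.

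Among 53 tested mitosis genes, 18 were called higher in RarαDN ENCDC and 0 lower, where 2.78% and 5.55% of all genes were called, and the median log2 fold change was 0.77. At an unadjusted p under 0.05, 34 were higher and 2 lower, and DESeq2 called 25 higher and 1 lower. Top2a, which encodes the topoisomerase that untangles chromosomes before division, had 277, 285 and 263 CPM in RarαDN ENCDC and 123.041, 66.1, 84.3 and 109.6 CPM in control ENCDC (edgeR log2 fold change 1.52 ± 0.21 SE, adjusted p = 0.00716). Ccna2, which encodes cyclin A2, had 689, 645 and 658 CPM in RarαDN ENCDC and 434, 325, 349 and 333 CPM in control ENCDC (edgeR log2 fold change 0.88 ± 0.13 SE, adjusted p = 0.00846). In both genes all 3 RarαDN libraries lay above all 4 control libraries. The condensin subunit genes Smc2 (1.08, edgeR adjusted p = 0.00811) and Smc4 (1.22, edgeR adjusted p = 0.00874), the spindle gene Hmmr (1.31, edgeR adjusted p = 0.00929) and the kinetochore gene Cenpf (1.51, edgeR adjusted p = 0.0193) also rose. After the length trend was removed 5 members stayed called higher, Top2a, Ccna2, Smc4, Hmmr and Aurkb, with a list median of 0.56, whereas Smc2 and Cenpf did not pass (edgeR adjusted p = 0.158 and 0.186). The fit without both hemoglobin-rich control libraries kept 3 members called higher.

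Of 41 tested DNA replication genes, 9 were called higher and 0 lower, with a median log2 fold change of 0.36, and at an unadjusted p under 0.05 there were 18 higher and 1 lower, while DESeq2 called 12 and 1. Mcm3, which encodes a subunit of the replicative helicase, had 469, 427 and 413 CPM in RarαDN ENCDC and 303, 249.996, 256 and 251 CPM in control ENCDC (edgeR log2 fold change 0.72 ± 0.13 SE, adjusted p = 0.0104). Uhrf1, which encodes a factor for the copying of DNA methylation, had 321, 279.6 and 323 CPM in RarαDN ENCDC and 201, 166, 167 and 178 CPM in control ENCDC (edgeR log2 fold change 0.79 ± 0.13 SE, adjusted p = 0.0098). Mcm2, Mcm4 and Mcm5 were called as well. With the length trend removed 2 members passed, 1 of them among the 9, with a list median of 0.35, and Mcm2, Mcm3, Mcm4, Mcm5 and Uhrf1 did not (edgeR adjusted p = 0.056 to 0.39). Of the 9, 1 passed without both hemoglobin-rich control libraries.

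The promoters of Top2a and Hmmr are shown because mitosis genes shared motifs, which describes the list and not the effect of RarαDN. Capitals mark TTTGAA or TTCGAA, the core of the cell cycle genes homology region, and CCAAT, the box bound by NF-Y, on either strand, so that ATTGG and TTCAAA are marked too, and overlapping matches were all marked. The windows are chr11:99024140-99024439 and chr11:40733388-40733687, both on the minus strand of GRCm38.p6 (RefSeq).
Top2a: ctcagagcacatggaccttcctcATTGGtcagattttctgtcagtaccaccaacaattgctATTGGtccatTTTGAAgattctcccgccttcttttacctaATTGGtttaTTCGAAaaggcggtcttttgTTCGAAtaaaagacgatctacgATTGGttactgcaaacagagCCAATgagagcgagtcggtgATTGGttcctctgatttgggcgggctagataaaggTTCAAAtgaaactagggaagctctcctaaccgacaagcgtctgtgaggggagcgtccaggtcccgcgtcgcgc
Hmmr: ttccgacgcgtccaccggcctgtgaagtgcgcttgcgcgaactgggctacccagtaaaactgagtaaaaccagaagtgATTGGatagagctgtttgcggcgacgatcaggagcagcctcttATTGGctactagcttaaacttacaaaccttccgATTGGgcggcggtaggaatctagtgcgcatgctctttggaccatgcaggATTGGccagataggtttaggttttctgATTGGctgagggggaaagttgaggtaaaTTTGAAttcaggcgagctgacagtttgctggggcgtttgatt
TTTGAA or TTCGAA was found in 37 of 45 mitosis genes with a RefSeq promoter (82.2%), against 1521 of all 9597 promoters (15.8%), and CCAAT in 34 of 45 (75.6%), against 4192 (43.7%). Both motifs together were present in 32 of 45 (71.1%), against 776 of 9597 (8.09%). Of the 14 called mitosis genes with a promoter, 11 (78.6%) held TTTGAA or TTCGAA and 9 (64.3%) held both motifs. These shares are no higher than those of the whole list. Among all 270 genes called higher with a promoter, 62 (23%) held TTTGAA or TTCGAA, and among the 536 called lower, 86 (16.0%) did. In the 33 promoters of DNA replication genes, TTTGAA or TTCGAA was present in 6 (18.2%) and CCAAT in 22 (66.7%).

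Genes that mark enteric progenitors were mixed. Of 23 tested receptors and transcription factors of ENS progenitors, 4 were called higher and 2 lower (17.4% and 8.70%, beside 2.78% and 5.55% of all genes). The median log2 fold change was 0.54. Besides Ednrb, the higher genes were Gfra1, the co-receptor through which GDNF acts on RET (0.67, edgeR adjusted p = 0.0248), the transcription factor Ets1 (1.04, edgeR adjusted p = 0.0183) and Rest, a repressor of neuronal genes (1.33, edgeR adjusted p = 0.0372). Rest had 59.2, 56.1 and 63.8 CPM in RarαDN ENCDC and 16.4, 17.9, 20.9 and 40.0 CPM in control ENCDC, without overlap, and passed in 1 of the 7 fits that left a library out. Sox9, a transcription factor gene of neural crest and glia, was near the floor, with 0.159, 1.91 and 2.53 CPM in RarαDN ENCDC and 21.7, 18.6, 17.8 and 13.3 CPM in control ENCDC (edgeR log2 fold change -3.49 ± 0.75 SE, adjusted p = 0.0213). Phox2a, a homeobox gene of autonomic neurons, had 6.05, 8.43 and 8.90 CPM in RarαDN ENCDC and 17.3, 33.7, 35.5 and 39.3 CPM in control ENCDC (edgeR log2 fold change -2.01 ± 0.40 SE, adjusted p = 0.0162). Ret, the GDNF receptor gene and the Cre driver locus, had 278, 189.7 and 407 CPM in RarαDN ENCDC and 280.2, 261, 267 and 368 CPM in control ENCDC, with overlapping groups (edgeR log2 fold change -0.01 ± 0.24 SE, adjusted p = 0.985). Sox10, a transcription factor gene of neural crest, had 105, 81.6 and 268 CPM in RarαDN ENCDC and 32.996, 43.6, 70.2 and 89.1 CPM in control ENCDC (edgeR log2 fold change 1.36 ± 0.44 SE, adjusted p = 0.0857). It did not pass in edgeR but did by DESeq2. The list's median with the length trend removed was 0.18 and only Ednrb and Sox9 of the 6 called genes passed, while Gfra1, Ets1, Rest and Phox2a did not (edgeR adjusted p = 0.344, 0.128, 0.206 and 0.058). It was 0.41 when both hemoglobin-rich control libraries were left out, and 1 of the 6, Ednrb, passed.

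Of 12 tested Hox genes, which pattern the body axis and are known retinoid targets, 2 were called higher and 0 lower (16.7% and 0.0%). Over all genes 2.78% and 5.55% were called, and the median log2 fold change of the Hox genes was 0.92. At an unadjusted p under 0.05, 4 were higher and 0 lower, and DESeq2 called the same numbers. Hoxb5 had 181, 211 and 165 CPM in RarαDN ENCDC and 46.8, 56.2, 95.3 and 66.0 CPM in control ENCDC (edgeR log2 fold change 1.49 ± 0.24 SE, adjusted p = 0.00884). Hoxa5 had 94.7, 118 and 122 CPM in RarαDN ENCDC and 48.2, 44.6, 38.9 and 68.5 CPM in control ENCDC (edgeR log2 fold change 1.16 ± 0.23 SE, adjusted p = 0.0149). Both showed no overlap, and both also passed with the length trend removed, while Hoxb5 but not Hoxa5 passed without both hemoglobin-rich control libraries (edgeR adjusted p = 0.0306 and 0.0901). Of 18 tested glial lineage genes, 1 was called higher and 1 lower (5.56% each, beside 2.78% and 5.55% of all genes). Postn, a matricellular gene of Schwann cell precursors and mesenchyme, had 459.8, 500.0 and 393 CPM in RarαDN ENCDC and 197, 67.7, 152 and 216 CPM in control ENCDC (edgeR log2 fold change 1.51 ± 0.32 SE, adjusted p = 0.019), and the myelin protein gene Pmp22 was lower (-1.41, edgeR adjusted p = 0.0161). Postn did not pass with the length trend removed (edgeR adjusted p = 0.0582).

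Of 31 tested pan-neuronal genes, 9 were called lower and 3 higher, with a median log2 fold change of -0.46. Besides Uchl1, Stmn2, a microtubule regulator of growing axons, had 301, 358 and 172 CPM in RarαDN ENCDC and 748, 741, 969.7 and 937 CPM in control ENCDC (edgeR log2 fold change -1.61 ± 0.23 SE, adjusted p = 0.00824). Tagln3 (-1.26, edgeR adjusted p = 0.00886), Stmn3 (-1.34, edgeR adjusted p = 0.0121) and Stmn4 (-1.87, edgeR adjusted p = 0.0101) fell too. The 3 higher members were Nefm, a neurofilament gene with 184, 282 and 128 CPM in RarαDN ENCDC and 99.6, 49.7, 96.3 and 96.8 CPM in control ENCDC (edgeR log2 fold change 1.21 ± 0.30 SE, adjusted p = 0.0356), the growth cone gene Dpysl3 (0.68, edgeR adjusted p = 0.0248) and Syt11 (0.58, edgeR adjusted p = 0.0426). In the fit without the length trend 4 members stayed called lower and 1 higher, and Tagln3, Stmn3, Stmn4, Nefm and Syt11 did not pass (edgeR adjusted p = 0.0502 to 0.42). Leaving out both hemoglobin-rich control libraries kept 3 members called, all lower.

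Of 18 tested transmitter and neuropeptide genes, 3 were called lower and 0 higher (16.7% and 0.0%, beside 5.55% and 2.78% of all genes). DESeq2 called 5 lower and 0 higher, and at an unadjusted p under 0.05 there were 6 and 2. Cartpt, a peptide precursor gene of early enteric neurons, had 212, 157 and 77.0 CPM in RarαDN ENCDC and 439, 759, 936 and 763 CPM in control ENCDC (edgeR log2 fold change -2.29 ± 0.35 SE, adjusted p = 0.00846). Npy, the neuropeptide Y gene, was close to absent in RarαDN ENCDC, with 0, 0 and 0.0936 CPM, and had 4.63, 4.18, 12.6 and 9.39 CPM in control ENCDC (edgeR adjusted p = 0.0106). Scg2, which encodes a granin of dense core vesicles, had 0, 0 and 1.498 CPM in RarαDN ENCDC and 23.3, 16.9, 18.0 and 6.83 CPM in control ENCDC (edgeR adjusted p = 0.0362). The groups did not overlap for any of these genes. Among 43 tested ion channel genes, the serotonin receptor subunit gene Htr3b was lower (-2.54, edgeR adjusted p = 0.0199) and the nicotinic receptor subunit gene Chrnb4 was higher (0.93, edgeR adjusted p = 0.0386). Each was the only call in its direction, 2.33% of the list, beside 5.55% lower and 2.78% higher over all genes. Scg2 and Chrnb4 did not pass with the length trend removed (edgeR adjusted p = 0.0835 and 0.264). Cartpt, Npy, Scg2, Htr3b and Chrnb4 did not when both hemoglobin-rich control libraries were left out (edgeR adjusted p = 0.0616, 0.0551, 0.151, 0.0616 and 0.164). In sorted cells of a whole organ, fewer cells of a type and less RNA per cell cannot be told apart.

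Genes of protein synthesis and respiration held many of the lower calls. Of 77 tested cytosolic ribosomal protein genes, 40 were called lower and 0 higher (51.9% and 0.0%, beside 5.55% and 2.78% of all genes). The list's median log2 fold change was -1.01. At an unadjusted p under 0.05 there were 54 lower and 0 higher, while DESeq2 called 49 and 0. The 77 genes had a median transcript length of 799 bases, against 2934 over all genes tested. With the length trend removed 4 were called lower and the median was -0.17, and without both hemoglobin-rich control libraries 18 were called lower. Rplp0, which encodes the ribosomal stalk protein, was among those 4, with 801, 741 and 739.6 CPM in RarαDN ENCDC and 1393, 1553, 1608 and 1266 CPM in control ENCDC (edgeR log2 fold change -0.94 ± 0.12 SE, adjusted p = 0.00609). Of 80 tested nuclear-encoded genes of oxidative phosphorylation, 49 were called lower and 1 higher (61.25% and 1.25%, beside 5.55% and 2.78% of all genes). Their median was -0.96. Cox6c, a subunit gene of cytochrome c oxidase, had 254, 249 and 269 CPM in RarαDN ENCDC and 526, 789, 843 and 583 CPM in control ENCDC (edgeR log2 fold change -1.41 ± 0.18 SE, adjusted p = 0.00596). With the length trend removed 5 of the 80 were called lower, Cox6c did not pass (edgeR adjusted p = 0.205), and the median was -0.06. Without both hemoglobin-rich control libraries 28 of the 80 were called lower. The higher gene was Sdha, the succinate dehydrogenase subunit, whose transcript of 2900 bases is long for the list (0.73, edgeR adjusted p = 0.019), and it did not pass with the length trend removed (edgeR adjusted p = 0.0583). Of 73 mitochondrial ribosomal protein genes 25 were called lower and 0 higher (34.2% and 0.0%, beside 5.55% and 2.78% of all genes). DESeq2 called 37 and 0, and an unadjusted p under 0.05 gave 46 and 1. By edgeR 4 of the 73 were called lower once the length trend was removed and 6 without both hemoglobin-rich control libraries. Of 35 proteasome genes 8 were called lower and 0 higher (22.9% and 0.0%, beside 5.55% and 2.78% of all genes). DESeq2 called 11 and 1, and an unadjusted p under 0.05 gave 12 and 2. None of the 35 passed with the length trend removed or without both hemoglobin-rich control libraries.

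**Figure D4:**
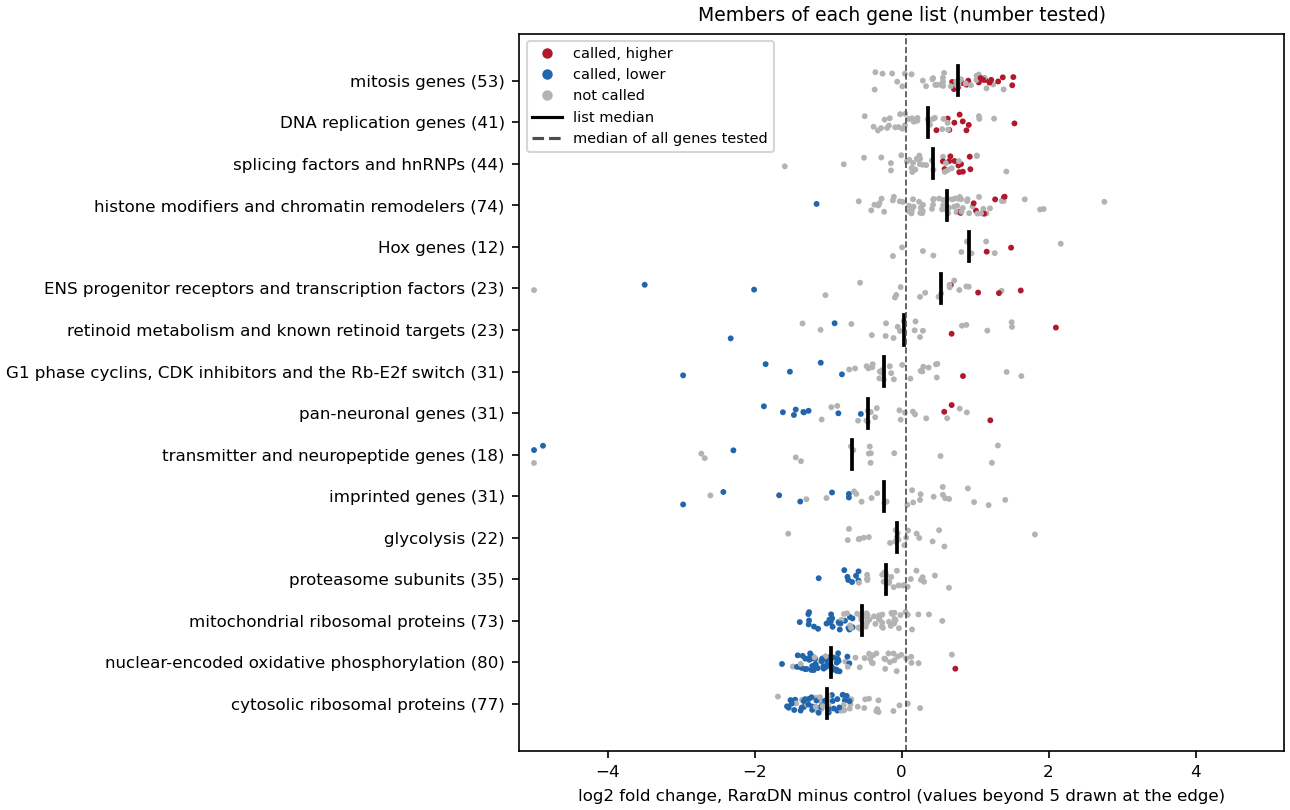
Log2 fold change (RarαDN minus control) of every tested member of 16 gene lists, with members called higher in red, called lower in blue and uncalled in grey, a black bar at the list median and a dashed line at the median of all genes tested. The list medians run from -1.01 for cytosolic ribosomal proteins to 0.92 for Hox genes, beside 0.06 over all genes.

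Nuclear genes of RNA processing and chromatin held higher calls. Of 44 tested splicing factors and hnRNPs, 11 were called higher and 0 lower, with a median log2 fold change of 0.42, while an unadjusted p under 0.05 gave 22 higher and 1 lower and DESeq2 16 and 0. Hnrnpa2b1, which encodes an abundant RNA-binding protein, had 3323, 4109.9 and 2624 CPM in RarαDN ENCDC and 2232, 1542, 1744 and 2134 CPM in control ENCDC (edgeR log2 fold change 0.81 ± 0.18 SE, adjusted p = 0.0216). Its transcript is short for the higher genes, 1662 bases, and its log2 fold change was 1.01 with the length trend removed (edgeR adjusted p = 0.0267). The splicing coactivator gene Srrm2 (0.93, edgeR adjusted p = 0.00886) and the scaffold attachment factor gene Hnrnpu (0.94, edgeR adjusted p = 0.0162) have long transcripts and did not pass with the trend removed. Of 74 tested histone modifiers and chromatin remodelers, 8 were called higher and 1 lower (10.8% and 1.35%, beside 2.78% and 5.55% of all genes). Whsc1, a histone methyltransferase gene, was among the higher (1.12, edgeR adjusted p = 0.0118), and the histone deacetylase gene Hdac5 was lower (-1.16, edgeR adjusted p = 0.0495). None of the 8 passed with the length trend removed, where the list's median log2 fold change was 0.15 in place of 0.62, whereas Hdac5 passed. Without both hemoglobin-rich control libraries 2 splicing genes and 2 chromatin genes were called higher.

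Translation factors were called in both directions. Of 63 tested, 4 were higher and 8 lower (6.35% and 12.7%, beside 2.78% and 5.55% of all genes), with a median log2 fold change of 0.05. Eif4g1, which encodes the scaffold of the cap-binding complex, had 247, 198 and 307 CPM in RarαDN ENCDC and 108, 107, 95.7 and 131 CPM in control ENCDC (edgeR log2 fold change 1.18 ± 0.18 SE, adjusted p = 0.00862), whereas Eif3k, a small subunit gene of the eIF3 complex, had 259, 272 and 246 CPM in RarαDN ENCDC and 444, 574, 517 and 379 CPM in control ENCDC (edgeR log2 fold change -0.88 ± 0.16 SE, adjusted p = 0.0106). Among 20 aminoacyl-tRNA synthetase genes, which charge tRNAs, Wars, Eprs and Aars were called higher (0.81, 0.81 and 0.69, edgeR adjusted p = 0.0125, 0.019 and 0.0443) and none lower. These are 15.0% and 0.0%, beside 2.78% and 5.55% of all genes. At an unadjusted p under 0.05 there were 9 higher and 0 lower, and DESeq2 called 5 and 0. In the lysosome and autophagy list of 28, 1 gene was called higher and 5 lower (3.57% and 17.9%, beside 2.78% and 5.55% of all genes). Ctsb, which encodes the protease cathepsin B, had 760.3, 711 and 679.8 CPM in RarαDN ENCDC and 541, 451, 391 and 455 CPM in control ENCDC (edgeR log2 fold change 0.64 ± 0.13 SE, adjusted p = 0.0183), and Gabarap, an autophagosome gene, had 130.0, 126 and 159 CPM in RarαDN ENCDC and 218, 321, 368 and 271 CPM in control ENCDC (edgeR log2 fold change -1.09 ± 0.19 SE, adjusted p = 0.0106). The groups did not overlap for Eif4g1, Eif3k, Ctsb or Gabarap. Of 25 p53 target and apoptosis genes 2 were called lower and 0 higher (8.0% and 0.0%, beside 5.55% and 2.78% of all genes). There were 3 and 1 at an unadjusted p under 0.05 and 3 and 0 by DESeq2. Bax, a pore-forming gene of the mitochondrial death pathway, had 241, 242 and 226 CPM in RarαDN ENCDC and 376, 497, 506 and 357 CPM in control ENCDC (edgeR log2 fold change -0.88 ± 0.16 SE, adjusted p = 0.011), and Bbc3, which encodes the p53 effector PUMA, had 3.02, 3.49 and 3.93 CPM in RarαDN ENCDC and 12.2, 13.6, 18.5 and 15.5 CPM in control ENCDC (edgeR log2 fold change -2.10 ± 0.48 SE, adjusted p = 0.0268). Ctnnb1, which encodes β-catenin, had 816, 800.4 and 938 CPM in RarαDN ENCDC and 596, 498, 377 and 604 CPM in control ENCDC (edgeR log2 fold change 0.71 ± 0.17 SE, adjusted p = 0.0288). Of the 10 genes named here, Eif4g1 and Wars passed with the length trend removed (edgeR adjusted p = 0.0394 and 0.0468). Eif3k, whose transcript has 774 bases, was then at -0.04 on the log2 scale (edgeR adjusted p = 0.909), and Eprs, Aars, Ctsb, Gabarap, Bax, Bbc3 and Ctnnb1 did not pass (edgeR adjusted p = 0.0685 to 0.624). Without both hemoglobin-rich control libraries the edgeR adjusted p of the 10 genes named here was above the threshold, at 0.0508 to 0.127.

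Adhesion and actin genes were called in both directions. Of 41 tested focal adhesion and actin regulators, 3 were called higher and 6 lower (7.32% and 14.6%, where 2.78% and 5.55% of all genes were called), and 1 of the 3 and 1 of the 6, Nedd9 and Tmsb4x, passed with the length trend removed and also without both hemoglobin-rich control libraries. The higher ones were Nedd9, the F-actin-binding gene Coro1c (0.96, edgeR adjusted p = 0.0145) and Rdx, which encodes the membrane linker radixin (0.89, edgeR adjusted p = 0.0275). Cdh6, a cadherin gene of neural crest, had 166, 156 and 155 CPM in RarαDN ENCDC and 65.3, 54.6, 48.9 and 84.7 CPM in control ENCDC (edgeR log2 fold change 1.32 ± 0.21 SE, adjusted p = 0.00865). Cadm1, an immunoglobulin adhesion molecule gene, had 601, 559 and 446 CPM in RarαDN ENCDC and 254, 213, 339.8 and 346 CPM in control ENCDC (edgeR log2 fold change 0.89 ± 0.19 SE, adjusted p = 0.02). No library of 1 group reached the other group in either gene. Of 50 axon guidance genes 3 were called higher and 0 lower (6.0% and 0.0%, beside 2.78% and 5.55% of all genes). At an unadjusted p under 0.05 there were 6 and 2, beside 11.3% and 12.4% of all genes. DESeq2 called 4 and 2, beside 5.11% and 9.14% of all genes. The 3 called higher by edgeR were Nrp1, a semaphorin and VEGF co-receptor gene (0.69, edgeR adjusted p = 0.0216), Sema3c and Plxna2. Sema3c had 17.2, 18.0 and 4.12 CPM in RarαDN ENCDC and 0.411, 0, 0 and 0.610 CPM in control ENCDC (edgeR adjusted p = 0.0196). Plxna2 had 3.66, 1.91 and 4.59 CPM and 0, 0, 0.131 and 0 CPM in the same order (edgeR adjusted p = 0.0329). Arhgap28 (1.47, edgeR adjusted p = 0.00596) and Arhgap42 (1.76, edgeR adjusted p = 0.00824), genes of GTPase-activating proteins, were higher and passed also with the length trend removed, whereas Coro1c, Rdx, Cdh6, Nrp1, Sema3c and Plxna2 did not pass in that fit (edgeR adjusted p = 0.0569 to 0.134). In the extracellular matrix Col1a2, a fibrillar collagen gene, had 12.1, 6.63 and 12.5 CPM in RarαDN ENCDC and 73.6, 64.0, 153 and 48.8 CPM in control ENCDC (edgeR log2 fold change -3.03 ± 0.44 SE, adjusted p = 0.00824), and Tnc, the tenascin C gene, had 8.59, 3.71 and 21.4 CPM in RarαDN ENCDC and 48.7, 59.4, 44.8 and 73.4 CPM in control ENCDC (edgeR log2 fold change -2.32 ± 0.52 SE, adjusted p = 0.0248). Col1a2 is also among the mesenchyme markers, whose summed level was lower in RarαDN ENCDC, and the part of other cells in its difference was not tested.

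Imprinted genes were lower where they were called. Of 31 tested, 7 were called lower and 0 higher (22.6% and 0.0%, beside 5.55% and 2.78% of all genes). The 7 and the 31 each hold both Snrpn and Snurf, whose counts are identical, so a single measurement is counted more than once in this share. There were 10 and 2 at an unadjusted p under 0.05 and 8 and 0 by DESeq2. Besides Cdkn1c and Dlk1 they were Gnas, which encodes the stimulatory G protein subunit (-0.95, edgeR adjusted p = 0.0106), Nnat (-1.38, edgeR adjusted p = 0.0106), the noncoding RNA Meg3 (-1.67, edgeR adjusted p = 0.0429), and Snrpn with Snurf, which share identical counts and cannot be told apart (-0.72, edgeR adjusted p = 0.0359). Gnas had 1272, 1208 and 1803 CPM in RarαDN ENCDC and 2228, 2867, 3039 and 2866 CPM in control ENCDC. Meg3 had 15.6, 17.4 and 16.3 CPM in RarαDN ENCDC and 23.03, 46.2, 44.7 and 94.9 CPM in control ENCDC, so its spread was wide in controls. The list's median log2 fold change was -0.23. Of the 7, Cdkn1c, Dlk1 and Gnas passed with the length trend removed, and Nnat, Meg3, Snrpn and Snurf did not (edgeR adjusted p = 0.0859 to 0.591). Only Cdkn1c and Dlk1 of the 7 passed without both hemoglobin-rich control libraries, where the list's median was -0.02.

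Some lists held no call in either direction. Of 22 glycolysis genes none was called by edgeR, 1 was higher and 2 lower at an unadjusted p under 0.05, and DESeq2 called 0 higher and 2 lower. Ldha, a lactate dehydrogenase gene, had 2320.4, 2156 and 2225 CPM in RarαDN ENCDC and 2449, 3162, 2158 and 1712 CPM in control ENCDC, with overlap (edgeR log2 fold change -0.09 ± 0.18 SE, adjusted p = 0.831). Of 17 feedback genes of receptor tyrosine kinase signaling none was called by edgeR or DESeq2, and 2 were higher and 0 lower at an unadjusted p under 0.05. Dusp6, an ERK phosphatase gene, had 892, 641 and 783 CPM in RarαDN ENCDC and 666, 551, 597 and 555 CPM in control ENCDC (edgeR log2 fold change 0.38 ± 0.14 SE, adjusted p = 0.127). A p that misses the threshold does not show that these genes were alike in the groups.

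A few called genes had no counts at all in 1 group. Bmp4, the bone morphogenetic protein gene, had 39, 43 and 20 counts in RarαDN ENCDC and 0 in all 4 control libraries. This is 42.4-fold higher when the control level is set to 3 counts over the whole group. That rule allows for the sampling of counts only and not for the spread between libraries, so its folds are not firm lower limits. Fzd4, a Wnt receptor gene, had 40, 50 and 18 counts in RarαDN ENCDC and 0 in control ENCDC, 44.9-fold higher on the same rule. Galnt3, Bhlha15, Plcg2, Zfp109 and 9130019O22Rik had the same pattern, with folds from 28.3 to 55.7 on that rule. The genes at 0 in control ENCDC were at a low level in RarαDN ENCDC, 2.63 to 5.18 CPM over the pooled libraries. Control libraries also had fewer genes detected at equal depth, 12285 to 12961 against 13355 to 13748. The part of that lower detection in these zeros was not tested. In the other direction Chodl had 0 counts in all 3 RarαDN libraries and 46, 80, 1 and 37 counts in control ENCDC. It was 43.8-fold lower in RarαDN ENCDC on that rule, although control library 3 held only 1 count. Hba-x, an embryonic hemoglobin gene, had 0 counts in RarαDN ENCDC and 24, 162, 49 and 18 counts in control ENCDC, 67.6-fold lower on that rule. Wnt11, a Wnt ligand gene, had 0, 0 and 0.281 CPM in RarαDN ENCDC and 7.30, 7.76, 10.52 and 6.71 CPM in control ENCDC (edgeR adjusted p = 0.0173), a complete separation at a low level. Wnt11 passed with the length trend removed, and the other 9 of these genes did not (edgeR adjusted p = 0.0593 to 0.103).

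In 3 called genes the groups overlapped. Slc7a11, which encodes the cystine/glutamate antiporter, had 259, 293 and 1.12 CPM in RarαDN ENCDC and 1.64, 3.43, 1.45 and 1.83 CPM in control ENCDC (edgeR adjusted p = 0.038). RarαDN libraries 1 and 2 thus exceeded every control library by a wide margin while RarαDN library 3 was below all of them. RarαDN libraries 1 and 2 hold Y-linked transcripts, and so does control library 2, which had 3.43 CPM of Slc7a11. With a Y-linked term in the fit the edgeR log2 fold change of Slc7a11 was 3.15 and the adjusted p 0.254, in place of 6.48 and 0.038. The cause of the split was not tested. Gsta4, a glutathione transferase gene, had 93.6, 494 and 253 CPM in RarαDN ENCDC and 95.1, 48.9, 61.8 and 114 CPM in control ENCDC (edgeR adjusted p = 0.0408). Ajap1, a junction-associated gene, had 107, 101 and 32.3 CPM in RarαDN ENCDC and 40.9, 11.6, 20.0 and 20.2 CPM in control ENCDC (edgeR adjusted p = 0.0463). None of the 3 passed with the length trend removed (edgeR adjusted p = 0.0569 to 0.13). These 3 genes were singled out after their values were seen.

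More genes were detected in RarαDN ENCDC. With each library thinned to 6000000 counts, 13553, 13748 and 13355 genes had at least 1 count in RarαDN ENCDC and 12425, 12285, 12629 and 12961 in control ENCDC. The means were 13552 ± 197 and 12575 ± 294 (SD, n = 3 and 4), and all RarαDN libraries lay above all control libraries. In a two-sided exact permutation test over libraries the difference of 977 genes had p = 0.0286, the smallest value that 3 against 4 libraries allow. Within groups the median SD of log2 CPM over the 12085 genes was 0.29 in RarαDN ENCDC and 0.51 in control ENCDC. Control ENCDC had the larger SD in 76.7% of genes. These SDs rest on 3 and 4 libraries, and the difference in spread was not tested. With 5 counts as the minimum the difference in genes detected was 599.6 (exact permutation p = 0.0571), and without any 1 library the exact permutation p was 0.0667 to 0.1, where fewer arrangements allow no value under 0.05.

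The effect of RarαDN in E13.5 colon was then set beside that in E11.5 stomach, in 1 fit of all 15 libraries. Organ, age, Cre driver and reporter changed together between the experiments and cannot be told apart. The effects differed (edgeR adjusted p under 0.05 for the interaction) in 1950 of 13412 genes (14.5%), 984 with a more positive value at E13.5 (7.34%) and 966 with a more negative value (7.20%). Of the 1007 genes called at E13.5, 743 (73.8%) passed this test, which contains the E13.5 effect by which they were chosen, and of the 22 genes that passed every E13.5 fit, 15 did. The E11.5 log2 fold change had the opposite sign in 849 of the 1007 and in 14 of the 22. An opposite sign is thus not particular to the genes named next. The length trend was not removed in the joint fit. Nedd9 had a log2 fold change of 3.29 at E13.5, from the 7 libraries alone, and of -2.76 at E11.5, from the joint fit. Ednrb (1.62 and -0.69) and Ccnjl (1.12 and -1.36) also had opposite signs at E13.5 and E11.5, and so, with a fall at E13.5, did Emp3 (-3.62 and 2.16), S100a10 (-1.83 and 0.93) and Ccnd2 (-1.85 and 0.62). Anxa2 (-2.73 and 3.33) and Vim (-0.98 and 0.96) showed the same pattern. For Cdkn1c (-2.97 and -0.06) and Ucp2 (-2.24 and 0.02) the E11.5 value was close to 0. The interaction passed for each of these genes. For Lmo1 (-2.53 and -2.74), 2610017I09Rik (-2.47 and -2.69) and Id4 (-1.26 and -1.15) the values were negative at both ages and the interaction did not pass (edgeR adjusted p = 0.921, 0.789 and 0.85). The difference between ages was 0.17 ± 0.81 (SE) for Lmo1, 0.17 ± 0.34 for 2610017I09Rik and -0.16 ± 0.42 for Id4.

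**Figure D5:**
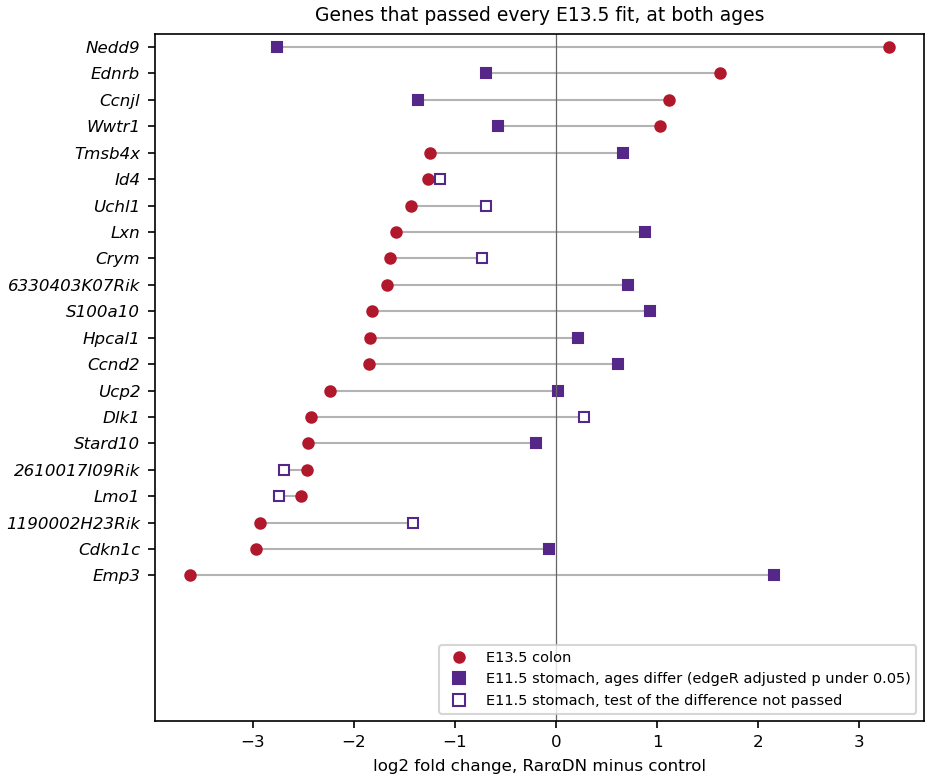
Log2 fold change (RarαDN minus control) of 21 of the 22 genes that passed every E13.5 fit, with red circles for E13.5 colon, from the fit of 7 libraries, and purple squares for E11.5 stomach, from the joint fit, filled where the difference between the ages passed (edgeR adjusted p under 0.05) and open where it did not. Squares are filled for 14 of the 21 genes drawn, and Lmo1, 2610017I09Rik and Id4 have both symbols close together on the negative side.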

How the data were processed

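RNA-seq of EYFP-sorted E13.5 colon ENCDC was read from raw counts per RefSeq transcript deposited by the authors, who combined 2 sequencing runs per sample, removed reads of repeats and ribosomal RNA and aligned with RUM. RUM's version, the build and the annotation: not given in the sources used here. None of the table's 15 log2 columns and 4 columns of the authors' own comparisons (log2 ratios and false discovery rates) was used. One transcript per gene, the one marked in the table, gave 17090 genes. Counts of the 7 libraries were filtered by edgeR's filterByExpr, TMM-scaled and fitted with the robust quasi-likelihood model of edgeR 4.0.16 (R 4.3.3), with Benjamini-Hochberg adjustment over all genes tested and a threshold of 0.05. The interaction used all 15 libraries. Genes at least 1 count deep were counted after thinning to 6000000 counts, with an exact permutation test. Transcript lengths, from GENCODE M21 by RefSeq accession, covered 97.8% of genes. The length fit added each library's smooth trend with length as an offset. The Y-linked covariate was log2 of the summed CPM of Y-linked genes plus 1. DESeq2 1.42.0 and limma 3.58.1 were alternatives, and the code was tested on simulated counts.

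Libraries are from separate embryos. Gene lists were chosen with earlier results of these data known. Named genes were the largest changes at above-median level, those at 0 in a whole group, those passing every fit, the most abundant called genes, list members of lowest adjusted p, and a few fixed symbols. Some of these genes are not reported here. Outside that rule Ajap1, Aurkb, Cenpf, Coro1a, Des, Egfl7, Gadd45a, Gfra1, Gsta4, Hdac5, Hmmr, Lxn, Mcm5, Meg3, Nefm, Rdx, Sdha, Slc7a11, Snrpn, Snurf and Syt11 were named after their values were seen.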

Additional observations from a re-analysis of the deposited data

Results flagged for a closer look

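In 9 of the 132 genes named, 1 of the 4 control libraries stood apart from the other three by the Dixon test at 95%, which chance would flag in about 1 of 20 groups tested. Control library 1 had 260.0 CPM of Rarb, 303 CPM of Mcm3 and 217 CPM of Aurkb, each the highest of the controls. Control library 2 had 49.7 CPM of Nefm, and control library 3 had 0.131 CPM of Plxna2. Control library 3 also had 909 CPM of Hba-a1 and Hba-a2 and 902 CPM of Hbb-b1 and Hbb-b2, pairs whose counts are identical. Without control library 3 the genes called numbered 462, against 1007 with it.

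The effect of RarαDN differed between E13.5 colon and E11.5 stomach in 1950 genes by the interaction test. Among the genes whose values at both ages the text gives, the difference of log2 fold changes (E13.5 minus E11.5) was 6.02 for Nedd9, 2.44 for Ccnjl and 2.28 for Ednrb. It was -6.11 for Anxa2, -5.83 for Emp3, -2.95 for Cdkn1c, -2.80 for S100a10, -2.50 for Ccnd2, -2.30 for Ucp2 and -1.97 for Vim. Organ, age, Cre driver and reporter differ together between the experiments and cannot be told apart.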

How the results depend on the processing

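The count of 1007 genes stayed within 1.5 times with RLE scaling, no scaling, no filter or a filter at 1 CPM, limma-voom, no robust step, a Y-linked covariate, hemoglobin genes left out or the transcript of the largest total (958 to 1097). It was 182 at an adjusted p of 0.01 (36 higher, 146 lower) and 1667 at 0.1 (678 higher). DESeq2 called 1723 (618 higher, 1105 lower), limma-voom with quality weights 1816 (800 and 1016), a single fit of all 4 groups 649 (379 lower), the fit without both hemoglobin-rich control libraries 212 (70 and 142), that with the length trend removed 197 (55 and 142), and a test against a log2 fold change of 0.5 called 70 (15 and 55). Leaving out 1 library gave 25 to 1258 calls, 6 to 524 higher and 19 to 743 lower. The interaction gave 1196 to 2052 genes when 1 library was left out and 3776 with limma-voom quality weights. The difference in genes detected was 879.0 to 1105.7 when 1 library was left out and 599.6 at 5 or more counts, where it did not pass. The causes were not tested.

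Deviations from the group means of samples with the same replicate number had r = 0.043, 0.0382 and 0.0457. Over all pairs of a RarαDN and a control library, r ran from -0.0992 to 0.106. So few values cannot show whether the numbers pair libraries. With the replicate block 850 genes were called and 1489 passed the interaction. Sox10, which did not pass, passed with the block (log2 fold change 1.5047), with the Y-linked covariate (1.63) and by DESeq2 (1.32).

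Among the genes named, direction changed for Ret, Rara, Ldha, hemoglobin genes, Snurf and 3 interactions. Ret had 0.074 without scaling, 0.16 with the Y-linked covariate, 0.0455 with the block and -0.33 to 0.22 without 1 library. Rara had 0.0216 with the Y-linked covariate and -0.47 to 0.0715 without 1 library. Ldha had 0.0105 without scaling, 0.12 without both hemoglobin-rich controls, 0.18 with the length trend removed and -0.21 to 0.0829 without 1 library. Without both hemoglobin-rich controls the value was 0.0305 for Hba-a1 and Hba-a2 and 0.15 for Hbb-b1 and Hbb-b2, and with the length trend removed it was 0.20 for Snurf. The interaction of 2610017I09Rik was -0.51 with limma-voom, -1.05 with quality weights and -0.0157 to 0.42 without 1 library, that of Id4 was 0.13 with quality weights, and that of Lmo1 was -0.0097 to 0.38 without 1 library. Of the other fits for named genes, 582 that left 1 library out and 1732 under other settings kept the call, while 333 and 359 kept the direction and lost the call.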
